A study of Homo sapiens with 24 samples.

Results

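REV-ERB receptors, PAR bZIP factors and the repressors that work beside them form an output arm of the circadian clock, and 9 of its genes were followed in AsPC-1 tumors after IK-595. They were chosen by symbol: NR1D1, NR1D2, DBP, TEF, HLF, NFIL3, BHLHE40, BHLHE41 and CIART. These are 9 of the 60230 genes in the deposited table, and all 9 were among the 18242 genes with enough counts to be tested.

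AsPC-1 is a human pancreatic ductal adenocarcinoma line, grown here as xenografts in mice. Tumors came from animals given 3 oral doses, every other day, of IK-595 at 6 mg/kg, a compound that the study's title calls a MEK-RAF molecular glue, and were taken 2, 4, 8, 24 or 48 h after the last dose. Control animals received 3 oral doses of the vehicle, 5% DMSO and 95% PEG400, and their tumors were taken at 2 h. Each of the 6 groups held 4 tumors from separate animals, 24 in all. The groups follow the sample titles, because the time label of an IK-595 tumor also speaks of a vehicle dose. The comparison at 2 h is the one in which both treatments have the same hours after dosing. At 4 to 48 h, treatment, hours after dosing and any difference in clock time cannot be told apart, and the hour of the day of collection is not given in the sources used here. The xenograft is 1 cell line, the strain of the host and whether it has immune cells are not given, and RNA of the whole tumor was sequenced.

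In the circadian clock, BMAL1 with CLOCK or NPAS2 drives transcription from E-box sequences, and PER and CRY proteins close that loop by repression. The REV-ERB receptors NR1D1 and NR1D2 bind RORE sequences and repress BMAL1 and other targets. The PAR bZIP factors DBP, TEF and HLF activate genes through D-box sequences, to which NFIL3 binds as a repressor. BHLHE40 and BHLHE41, the DEC proteins, bind E-boxes as repressors, and CIART represses BMAL1 with CLOCK. Pathways of growth factors, glucocorticoids and oxygen supply also act on several of these genes, as is known for BHLHE40 and hypoxia.

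The genes lie on 7 human chromosomes in GRCh38 with the GENCODE 29 annotation, and all are protein coding. NR1D1 is at chr17:40092787-40100725 and DBP at chr19:48630030-48637438, both on the minus strand. NR1D2 is at chr3:23945260-23980618, TEF at chr22:41367333-41399326 and CIART at chr1:150282543-150287093, all on the plus strand. BHLHE40 is at chr3:4979116-4985323 and HLF at chr17:55265012-55325065 on the plus strand, and NFIL3 at chr9:91409045-91423862 and BHLHE41 at chr12:26120026-26125127 on the minus strand.

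RefSeq promoter windows of GRCh38.p14, from 250 bases before to 50 after a start site, were found for all 9 genes, 13 windows in all. They were searched on both strands for the letters CACGTG (E-box), CACGTT (a variant E-box), TTANGTAA (D-box), TAGGTCA (RORE core) and TGACGTCA (CRE). No pair of these matches overlapped in the member windows. BHLHE40 had no stretch before its start that lay outside annotated exons. Shown are windows of NR1D1, NR1D2, DBP, TEF and CIART upstream of the start, trimmed to the longest run outside annotated exons, with matches in capitals. They let the promoter letters be set beside the time courses.
NR1D1, chr17:40100726-40100839, minus strand: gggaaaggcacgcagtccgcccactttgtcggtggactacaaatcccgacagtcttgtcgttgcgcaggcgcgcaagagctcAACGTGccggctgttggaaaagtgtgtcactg
NR1D2, chr3:23945871-23946120, plus strand: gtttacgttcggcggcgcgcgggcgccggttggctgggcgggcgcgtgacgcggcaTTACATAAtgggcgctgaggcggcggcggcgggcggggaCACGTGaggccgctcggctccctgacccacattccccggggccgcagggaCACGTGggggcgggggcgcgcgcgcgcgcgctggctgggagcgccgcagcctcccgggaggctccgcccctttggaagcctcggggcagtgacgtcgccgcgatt
DBP, chr19:48637439-48637629, minus strand: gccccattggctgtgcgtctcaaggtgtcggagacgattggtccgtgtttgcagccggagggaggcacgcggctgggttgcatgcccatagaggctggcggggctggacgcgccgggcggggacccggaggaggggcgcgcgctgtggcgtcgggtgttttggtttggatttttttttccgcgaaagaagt
TEF, chr22:41381692-41381928, plus strand: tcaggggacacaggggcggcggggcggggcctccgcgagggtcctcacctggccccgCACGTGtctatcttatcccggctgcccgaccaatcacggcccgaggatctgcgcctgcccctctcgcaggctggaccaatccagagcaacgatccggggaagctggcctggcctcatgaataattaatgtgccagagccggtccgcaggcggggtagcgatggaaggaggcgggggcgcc
CIART, chr1:150282304-150282542, plus strand: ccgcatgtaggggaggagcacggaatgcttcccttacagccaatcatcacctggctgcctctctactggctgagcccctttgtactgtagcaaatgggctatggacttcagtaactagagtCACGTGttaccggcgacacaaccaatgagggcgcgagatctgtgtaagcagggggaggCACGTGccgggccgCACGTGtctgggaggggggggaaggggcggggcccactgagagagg

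CIART carried 3 E-boxes, at -129, -71 and -57 bases from the start (first base of each match). The second window of NR1D2, at an internal start, held 2 E-boxes at -155 and -105 and a D-box at -194. Its first window, not shown, held no match. TEF had 1 E-box in each of its 2 windows, at -195 and -193. BHLHE40 and BHLHE41 had 1 each, at -245 and -48. NR1D1 held a variant E-box at -168, and none of the 5 letter patterns was in the DBP window. In HLF a CRE began at -7, and in NFIL3 an RORE core at -9. Over all 35116 RefSeq windows of this length, 7.26% held CACGTG, 5.34% CACGTT, 2.18% TTANGTAA, 1.85% TAGGTCA and 1.85% TGACGTCA. A match describes letters in these windows and not a bound site.

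**Figure D1:**
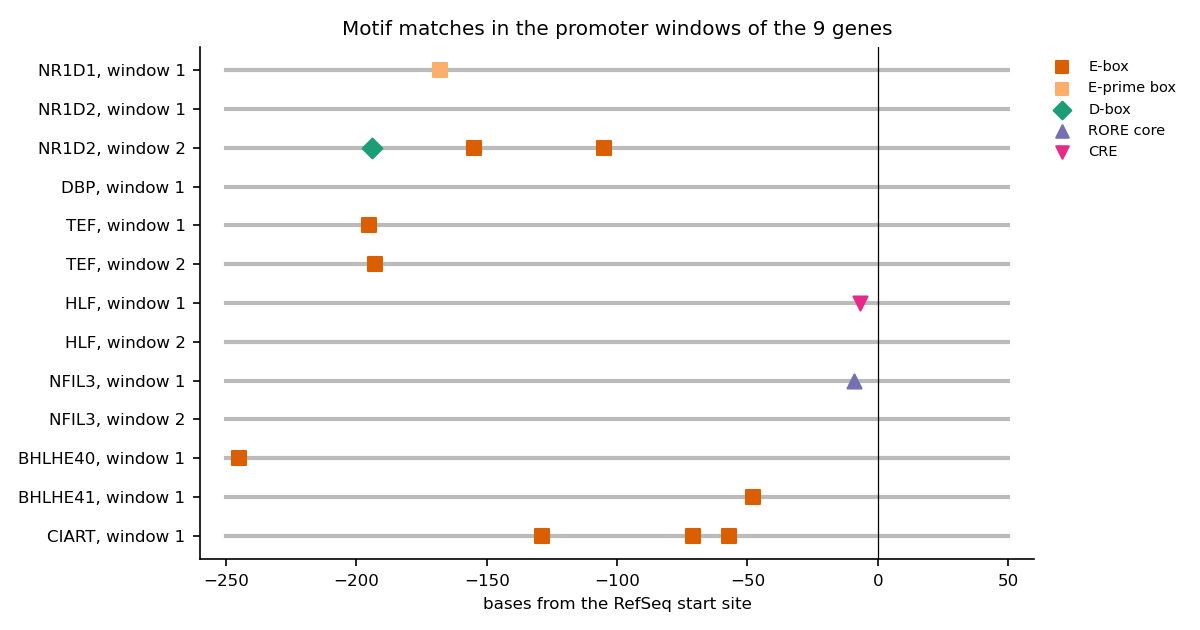
Positions of motif matches in the 13 promoter windows of the 9 genes. The x axis gives bases from the RefSeq start site, each grey line is 1 window, and symbols mark the first base of a match. CIART has 3 E-boxes and the DBP window has no match.

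Depth was 10.52 to 20.64 M estimated counts per tumor. Levels are given as CPM, a gene's share of the counts of its tumor with TMM scaling between tumors. TPM, which also divides by transcript length, is used where genes are compared. Tests are edgeR's quasi-likelihood tests over all 24 tumors, with Benjamini-Hochberg adjustment over 18242 genes, and rose or fell is written of a gene at an adjusted p under 0.05. A log2 fold change is given with its standard error (SE). Epithelial markers of the tumor line were high in every tumor, with KRT8 at 1382 to 6016 CPM, while KRT7 stayed at 1.87 to 10.5 CPM. The 10 genes of MAPK output summed to 264 to 343 CPM at 2 h, against 1622 to 1771 CPM in vehicle tumors. At 2 h 8 of them fell, where 13.6% of all genes fell. Host cell markers varied between tumors. The 15 fibroblast and pericyte markers summed to 33658 CPM in 4 h tumor 2, which had the lowest depth, and to 946 to 6146 CPM in the others. The list of muscle, fat and red cell markers summed to 2699 CPM in 2 h tumor 1. It summed to 2049 CPM in 8 h tumor 2, 1994 CPM in 24 h tumor 4 and 1694 CPM in 4 h tumor 4, and to 6.5 to 597 CPM elsewhere. Its high genes were those of muscle, with MYH1 at up to 1286, ACTA1 761, TTN 327 and CKM 322 CPM. The fat cell genes PLIN1 and FABP4 reached 9.05 and 2.85 CPM, and the red cell genes HBA1 and HBB 0.442 and 0.227 CPM. The 10 endothelial markers summed to 7.43 to 119 CPM. The 10 myeloid markers summed to 216 to 740 CPM, most of it from LYZ, at 175 to 611 CPM, and CD68, at 30.9 to 173 CPM. CSF1R reached 81.7, PTPRC 32.2 and ITGAM 5.42 CPM, and C1QA was at 0 in 21 tumors and TYROBP in 23. ADGRE1, C1QB, FCGR3A and ADIPOQ were at 0 in all 24 tumors. Reads were quantified on a human reference, and how reads of mouse cells were treated is not given. The tumors called rich in host markers below are 4 h tumor 2 and 2 h tumor 1. Where leaving out both tumors ended or made a member's call, the value without them is given. That omission keeps other tumors with much host RNA, such as 8 h tumor 4, with 6029 CPM of fibroblast and pericyte markers, and 8 h tumor 2. In whole tumors, fewer cells of a type and less RNA per cell cannot be told apart.

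At 2 h, the matched comparison, 4 of the 9 genes rose and no other member was called: DBP, NR1D1, CIART and TEF. In all 4, every IK-595 tumor was above every vehicle tumor. The share of all genes with such a separation was not counted. Over all genes tested, 13.4% rose and 13.6% fell at 2 h. The median log2 fold change of the 9 was 0.55, and that of all genes 0.05. At 4 h, 3 members rose (DBP, TEF and NR1D2) and BHLHE40 fell, where 6.74% of all genes rose and 8.39% fell. At 8 h, 3 rose (DBP, CIART and TEF) and 2 fell (NR1D2 and BHLHE40), where 20.6% of all genes rose and 23.7% fell. With the 2 tumors rich in host markers left out, 4 members were called at 2 h, the same genes, and 4 at 4 h, where CIART rose and NR1D2 was no longer called. At 8 h, 6 were then called, HLF being added, though neither omitted tumor is an 8 h or a vehicle tumor.

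At 24 and 48 h, edgeR called 0 of the 9 against vehicle, as did DESeq2 and limma-voom. By then 13.7% of all genes rose and 13.8% fell at 24 h, and 5.52% rose and 4.46% fell at 48 h. At an unadjusted p under 0.05 there were 2 members at 24 h (NR1D2 and CIART) and 3 at 48 h (NR1D1, DBP and BHLHE40). A fit to the 48 h and vehicle tumors alone called 4 members at 48 h, NR1D1, DBP, TEF and BHLHE40, all higher than vehicle. An F test over the 5 IK-595 times and vehicle called 6 of the 9, all but HLF, NFIL3 and BHLHE41, where 49.8% of all genes were called.

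**Figure D2:**
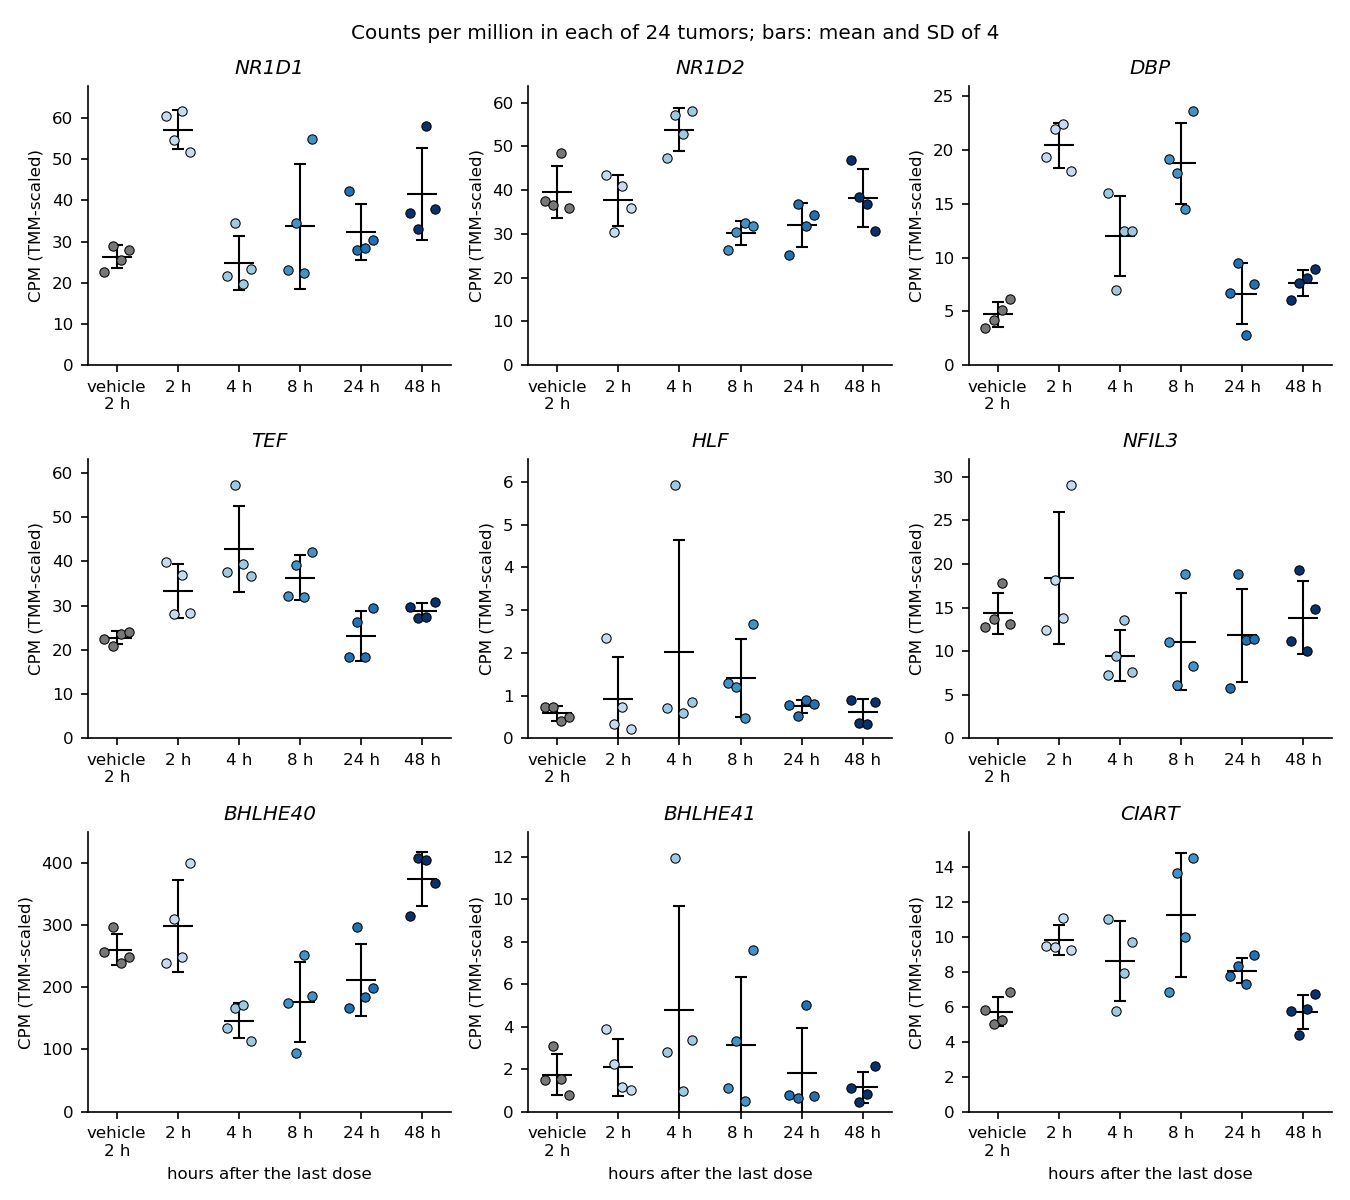
Level of each of the 9 genes in all 24 tumors. The y axis is CPM after TMM scaling, from 0, and the x axis gives the 6 groups by hours after the last dose; points are tumors, and bars are the mean and SD of 4. DBP and NR1D1 at 2 h lie wholly above vehicle, and NR1D2 is highest at 4 h.

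NR1D1, which encodes REV-ERB alpha, rose at 2 h and was back at the vehicle level by 4 h. The 4 tumors at 2 h had 60.5, 54.6, 61.6 and 51.7 CPM, against 22.7, 29.0, 25.6 and 28.0 CPM in vehicle tumors. The groups did not overlap, and the means were 57.1 ± 4.7 and 26.3 ± 2.8 CPM (SD, n = 4 each). The log2 fold change was 1.12 ± 0.24 (SE, adjusted p = 0.00175, edgeR), and the call held in every alternative run.

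At 4 h, NR1D1 stood at 21.6, 34.5, 19.8 and 23.4 CPM. These tumors lay around the vehicle range, with a log2 fold change of -0.09 ± 0.24 against vehicle (adjusted p = 0.841). The fall at 4 h relative to 2 h was -1.21 ± 0.24 on the log2 scale (adjusted p = 0.00305, edgeR), with no overlap, and it held in every alternative. At 8 h the tumors were spread, at 23.1, 34.5, 22.5 and 54.8 CPM. At 24 h they had 42.3, 28.0, 28.5 and 30.5 CPM, and at 48 h 37.0, 33.1, 58.0 and 37.8 CPM. All 4 tumors at 48 h were above all vehicle tumors, yet the difference of 0.65 ± 0.24 missed the threshold (adjusted p = 0.0815, edgeR). That value was called with host content as a covariate (adjusted p = 0.0185) and in the fit to those 2 groups alone (0.0237).

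NR1D2, which encodes REV-ERB beta, was not called at 2 h and was highest at 4 h, when NR1D1 was at the vehicle level. At 2 h it had 43.5, 30.3, 41.0 and 36.0 CPM, against 37.4, 36.6, 48.5 and 35.8 CPM in vehicle tumors, a log2 fold change of -0.07 ± 0.15 (adjusted p = 0.758, edgeR). The groups overlapped. At 4 h the tumors had 47.3, 57.2, 52.9 and 58.0 CPM, 1.36-fold the vehicle mean (log2 0.44 ± 0.15, adjusted p = 0.0412). The lowest 4 h tumor was just under the highest vehicle tumor. Omitting 1 tumor ended this call for vehicle tumors 1, 2 and 4 and for 4 h tumors 2 and 4 (adjusted p 0.0732 to 0.099), as did omitting both tumors rich in host markers (0.0642).

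By 8 h NR1D2 had 26.3, 30.5, 32.4 and 31.8 CPM, and all 4 tumors were below all vehicle tumors. The fall against vehicle was small, -0.39 ± 0.15 on the log2 scale (adjusted p = 0.0351, edgeR). Omitting vehicle tumor 1, 2 or 3, or 8 h tumor 1 or 2, ended the call, and without vehicle tumor 3 the value was -0.27 (adjusted p = 0.171). The fall at 8 h relative to 4 h was larger, -0.83 ± 0.15 (adjusted p = 0.00126), and held in every alternative. The rise at 4 h relative to 2 h was 0.51 ± 0.15 (adjusted p = 0.0222), and was lost without 2 h tumor 2 or 4 or 4 h tumor 4 (adjusted p 0.0522 to 0.0869). At 24 h NR1D2 had 25.2, 36.9, 31.7 and 34.4 CPM, and at 48 h 46.9, 38.4, 36.7 and 30.7 CPM. The log2 differences from vehicle were -0.30 ± 0.15 at 24 h (adjusted p = 0.126) and -0.05 ± 0.15 at 48 h (0.885).

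Per length, both receptors were expressed at like levels in vehicle tumors. NR1D1 made up 54.8 ± 5.6% of their summed TPM in vehicle tumors and 74.0 ± 3.9% at 2 h, with no overlap (SD, n = 4 each). The 4 h tumors had 44.3 ± 2.7%, the 8 h tumors 64.9 ± 9.0%, the 24 h tumors 64.7 ± 9.5% and the 48 h tumors 65.8 ± 8.1%. Every 4 h tumor, at 40.8 to 46.5%, was below every other tumor.

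**Figure D3:**
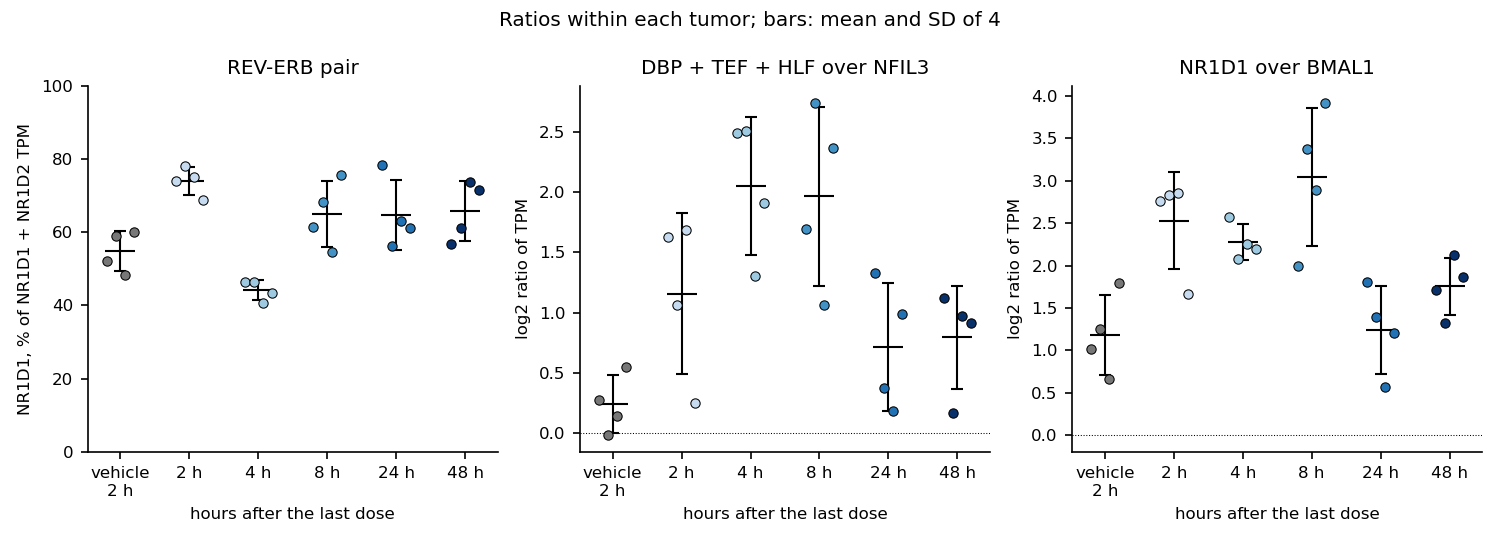
Ratios of TPM within each tumor, by hours after the last dose. Left, NR1D1 as a percent of NR1D1 plus NR1D2; middle, log2 of DBP, TEF and HLF summed over NFIL3; right, log2 of NR1D1 over BMAL1. Points are tumors, and bars are the mean and SD of 4; the NR1D1 share is 74.0% at 2 h and 44.3% at 4 h.

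DBP, the PAR bZIP factor named for binding the D site of the albumin promoter, had the largest rise of the 9 genes at 2 h. The 2 h tumors had 19.4, 21.9, 22.4 and 18.0 CPM, against 3.47, 4.16, 5.13 and 6.17 CPM in vehicle tumors. The lowest 2 h tumor stood well above the highest vehicle tumor, and the means were 20.4 ± 2.1 and 4.73 ± 1.2 CPM. DBP was thus 4.31-fold higher (log2 2.11 ± 0.28, adjusted p = 2.74e-05, edgeR). The call held in every alternative, from 1.51 on log2(TPM + 1) to 2.26 with a tumor left out.

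DBP remained up at 4 and 8 h. At 4 h it had 16.0, 6.99, 12.5 and 12.4 CPM, a log2 fold change of 1.35 ± 0.28 (adjusted p = 0.00151, edgeR), which was not called on log2(TPM + 1) (0.96, adjusted p = 0.0611). The lowest of these was tumor 2, the tumor richest in fibroblast markers. Without both tumors rich in host markers the value was 1.55. At 8 h DBP had 19.2, 17.9, 14.5 and 23.6 CPM (log2 1.99 ± 0.28, adjusted p = 8.59e-06). At both times every IK-595 tumor was above every vehicle tumor. At 24 h the tumors had 6.7, 9.52, 2.81 and 7.53 CPM, and at 48 h 6.08, 7.6, 8.06 and 8.98 CPM. Both times overlapped vehicle, with 0.49 ± 0.28 at 24 h (adjusted p = 0.193) and 0.70 ± 0.28 at 48 h (0.118). Without 24 h tumor 3, the 24 h value was 0.74 and called (adjusted p = 0.0197). The fall at 24 h relative to 8 h was -1.49 ± 0.28 (adjusted p = 0.00136), with no overlap and in every alternative, and that at 48 h relative to 2 h was -1.41 ± 0.27 (adjusted p = 0.00428, and 0.125 on log2(TPM + 1)).

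TEF, a PAR bZIP factor first known from thyrotroph cells, rose less than DBP and was highest at 4 h. At 2 h it had 39.9, 28.1, 36.8 and 28.3 CPM, against 22.4, 20.9, 23.7 and 24.1 CPM in vehicle tumors. No tumor overlapped, and the log2 fold change was 0.55 ± 0.17 (adjusted p = 0.0191, edgeR). Omitting vehicle tumor 1 or 2, or 2 h tumor 1 or 3, ended that call (adjusted p 0.0565 to 0.0786), as did log2(TPM + 1) (0.317). At 4 h the tumors had 37.5, 57.3, 39.5 and 36.7 CPM, with 0.91 ± 0.17 (adjusted p = 0.000546), and the call held in every alternative. Tumor 2 was the high one, and without both tumors rich in host markers the value was 0.76. At 8 h TEF had 32.2, 39.1, 32.0 and 42.1 CPM (0.67 ± 0.17, adjusted p = 0.00247, and 0.165 on log2(TPM + 1)). At both times all IK-595 tumors were above all vehicle tumors.

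By 24 h TEF was at 18.5, 26.2, 18.3 and 29.5 CPM, around the vehicle values (0.02 ± 0.17, adjusted p = 0.932, edgeR). The fall at 24 h relative to 8 h was -0.65 ± 0.17 (adjusted p = 0.0193), lost without 8 h tumor 2 or 4 or 24 h tumor 3 (0.062 to 0.0992). At 48 h it had 29.7, 27.2, 27.4 and 30.8 CPM, all above vehicle, with 0.34 ± 0.17 (adjusted p = 0.229).

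HLF, the PAR bZIP factor named for hepatic leukemia, was barely expressed, with 4 to 62 estimated counts per tumor. It had 2.36, 0.338, 0.734 and 0.225 CPM at 2 h, against 0.733, 0.726, 0.398 and 0.494 CPM in vehicle tumors. Only 2 h tumor 1 stood above the vehicle range by more than 1 CPM. At 4 h it had 0.72, 5.93, 0.602 and 0.858 CPM, and the value of tumor 2 was the highest of all 24 tumors. At 8 h it had 1.31, 1.21, 0.488 and 2.68 CPM, and at 24 and 48 h 0.334 to 0.897 CPM. HLF was not called at any time (adjusted p 0.11 to 0.974 against vehicle). Its log2 fold change at 2 h, 0.62 ± 0.72, turned to -0.46 without 2 h tumor 1. The 8 h value was 1.25 ± 0.72 (adjusted p = 0.166, edgeR), and 1.27 and called without both tumors rich in host markers (adjusted p = 0.0339). Neither of those tumors is an 8 h or a vehicle tumor. The 8 h tumor highest in HLF, tumor 4, stayed in that fit, with 6029 CPM of fibroblast and pericyte markers.

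NFIL3, the D-box repressor, was variable and was not called at any time. It had 12.5, 18.2, 13.8 and 29.1 CPM at 2 h, against 12.7, 13.7, 17.8 and 13.1 CPM in vehicle tumors. The mean at 2 h was raised by tumor 4, and the groups overlapped (log2 0.36 ± 0.34, adjusted p = 0.468, edgeR). At 4 h it had 7.25, 9.47, 13.6 and 7.62 CPM, where 1 of the 4 tumors lay inside the vehicle range. The 4 h difference was -0.59 ± 0.35 (adjusted p = 0.261). From 8 to 48 h the tumors ran from 5.76 to 19.3 CPM and overlapped vehicle at each time.

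Set against NFIL3 within each tumor, the PAR bZIP factors were highest at 4 and 8 h. The log2 ratio of DBP, TEF and HLF summed over NFIL3 was 0.24 ± 0.24 in vehicle tumors and 1.16 ± 0.67 in 2 h tumors (TPM, SD, n = 4 each). The 4 h tumors had 2.05 ± 0.57, the 8 h tumors 1.97 ± 0.74, the 24 h tumors 0.72 ± 0.53 and the 48 h tumors 0.80 ± 0.43. All tumors at 4 and 8 h, at 1.06 or more, were above all vehicle tumors, at 0.55 or less. The sum of the 3 activators was 10.4 ± 1.9 TPM in vehicle tumors, and 20.8 ± 2.1 TPM in 2 h, 24.0 ± 5.7 TPM in 4 h and 20.4 ± 1.2 TPM in 8 h tumors. The 24 h tumors had 10.9 ± 4.5 TPM and the 48 h tumors 13.7 ± 1.9 TPM. DBP made up 34.9 ± 8.9% of the sum in vehicle tumors and 58.2 ± 8.4% at 2 h.

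**Figure D4:**
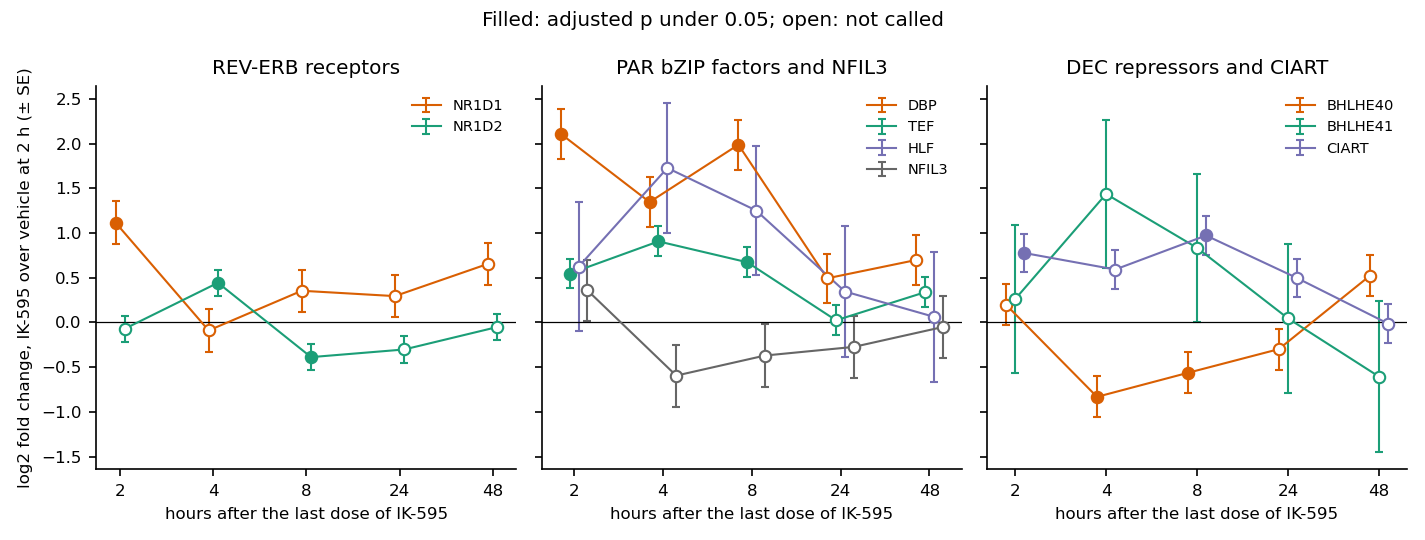
Log2 fold change of each member against vehicle at 2, 4, 8, 24 and 48 h after IK-595. Points are edgeR estimates and bars their SE; filled points have an adjusted p under 0.05. The x axis is spaced by group, not by hours. DBP is at 2.11 at 2 h and 1.99 at 8 h, and no point is filled at 24 or 48 h.

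BHLHE40, the DEC1 repressor, was the most expressed member, with a median of 94.6 TPM over the 24 tumors, and it fell at 4 and 8 h. At 2 h it had 238, 309, 248 and 399 CPM, against 257, 297, 239 and 249 CPM in vehicle tumors, with overlap (log2 0.20 ± 0.23, adjusted p = 0.557, edgeR). At 4 h the tumors had 135, 167, 171 and 113 CPM, all below all vehicle and all 2 h tumors. The fall at 4 h was -0.83 ± 0.23 against vehicle (adjusted p = 0.0151), lost without vehicle tumor 2 or 4 h tumor 4 (0.0575 and 0.0529). Relative to 2 h it was -1.03 ± 0.23 (adjusted p = 0.00661), and both falls were lost on log2(TPM + 1) (0.0674 and 0.0682).

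At 8 h BHLHE40 had 175, 93.7, 252 and 185 CPM, of which 1 tumor lay inside the vehicle range. Its fall was at the threshold, -0.56 ± 0.23 (adjusted p = 0.0495, edgeR). Only the omission of 8 h tumor 3 left it called among the 8 omissions, and without 8 h tumor 2 it was -0.36 (0.171). At 24 h it had 166, 297, 185 and 199 CPM (-0.30 ± 0.23, adjusted p = 0.349). At 48 h it had 315, 408, 405 and 368 CPM, above every vehicle and every 24 h tumor. The 48 h level was 0.52 ± 0.23 over vehicle (adjusted p = 0.165), and the rise at 48 h relative to 24 h was 0.82 ± 0.23 (adjusted p = 0.0449). The rise at 48 h was lost when any tumor but 24 h tumor 2 was left out (adjusted p 0.0593 to 0.144).

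Genes of the response to low oxygen were measured beside BHLHE40, which that response is known to induce. Of 15, none but VEGFA and ADM were called at 2 h, and both rose, where 13.4% of all genes rose and 13.6% fell. VEGFA, the vascular growth factor, averaged 727 CPM at 2 h and 242 CPM in vehicle tumors (log2 1.59 ± 0.28, adjusted p = 0.000485, edgeR). Relative to 2 h, 9 of the 15 fell at 4 h (2 to 10 with 1 tumor left out, and 5 without both tumors rich in host markers), where 9% of all genes fell. Among the 9 was the glucose transporter SLC2A1 at -1.47 ± 0.31 (adjusted p = 0.00437). At 48 h relative to 24 h, 5 of the 15 rose (2 to 11 with 1 tumor left out), where 2.47% of all genes rose. SLC2A1 averaged 1395 CPM at 48 h and 366 CPM at 24 h (1.93 ± 0.31, adjusted p = 0.00136), and its calls at both steps held without any tumor. The median log2 fold change of the list was -0.99 for 4 h over 2 h and 1.35 for 48 h over 24 h, where the median of all genes was 0.00 and -0.04. Against vehicle, 3 of the 15 fell and 0 rose at 4 h. At 8 h 4 fell and 1 rose, and at 24 h 7 fell and 1 rose. Of all genes, 8.39% fell and 6.74% rose at 4 h, 23.7% and 20.6% at 8 h, and 13.8% and 13.7% at 24 h. The list median against vehicle was -0.47 at 4 h, -0.30 at 8 h and -0.92 at 24 h. BHLHE40 had -0.83, -0.56 and -0.30 at these times, the last not called. The part of oxygen supply in the BHLHE40 values was not tested.

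BHLHE41, the DEC2 repressor, had 7 to 125 estimated counts per tumor and was not called at any time (adjusted p 0.255 to 0.972 against vehicle). It had 3.91, 2.25, 1.16 and 1.01 CPM at 2 h, against 1.51, 3.1, 1.54 and 0.79 CPM in vehicle tumors. The 4 h tumors had 2.83, 12.0, 0.973 and 3.38 CPM and the 8 h tumors 1.11, 3.32, 0.488 and 7.6 CPM. The 24 h tumors had 0.789, 0.625, 5.04 and 0.741 CPM, and the 48 h tumors 0.478 to 2.16 CPM. High values fell in single tumors of a group.

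The 4 tumors highest in BHLHE41 were also the 4 with the most fibroblast markers. The highest BHLHE41 values were in 4 h tumor 2, 8 h tumor 4, 24 h tumor 3 and 2 h tumor 1, whose 15 fibroblast and pericyte markers summed to 33658, 6029, 4219 and 6146 CPM. HLF was highest in 4 h tumor 2, 8 h tumor 4 and 2 h tumor 1. Within the list, COL1A1 ranged from 286 to 16123 CPM, while THY1 was at 0 in 6 tumors. The list of muscle, fat and red cell markers, in which the muscle genes were the high ones, summed to 105, 597, 61.8 and 2699 CPM in those 4 tumors. Without 2 h tumor 1 the 2 h value of BHLHE41 was -0.25, against 0.26 ± 0.82 with it. DBP was mixed in those 4 tumors. Its highest value of all 24 tumors, 23.6 CPM, was in 8 h tumor 4, and its lowest, 2.81 CPM, in 24 h tumor 3. In 4 h tumor 2 it had 6.99 CPM. The 2 h group, which holds tumor 1, had 18.0 to 22.4 CPM of DBP. Its 22.4 CPM was in 2 h tumor 3, with 1112 CPM of fibroblast markers. The part of host cells in HLF and BHLHE41 was not tested.

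**Figure D5:**
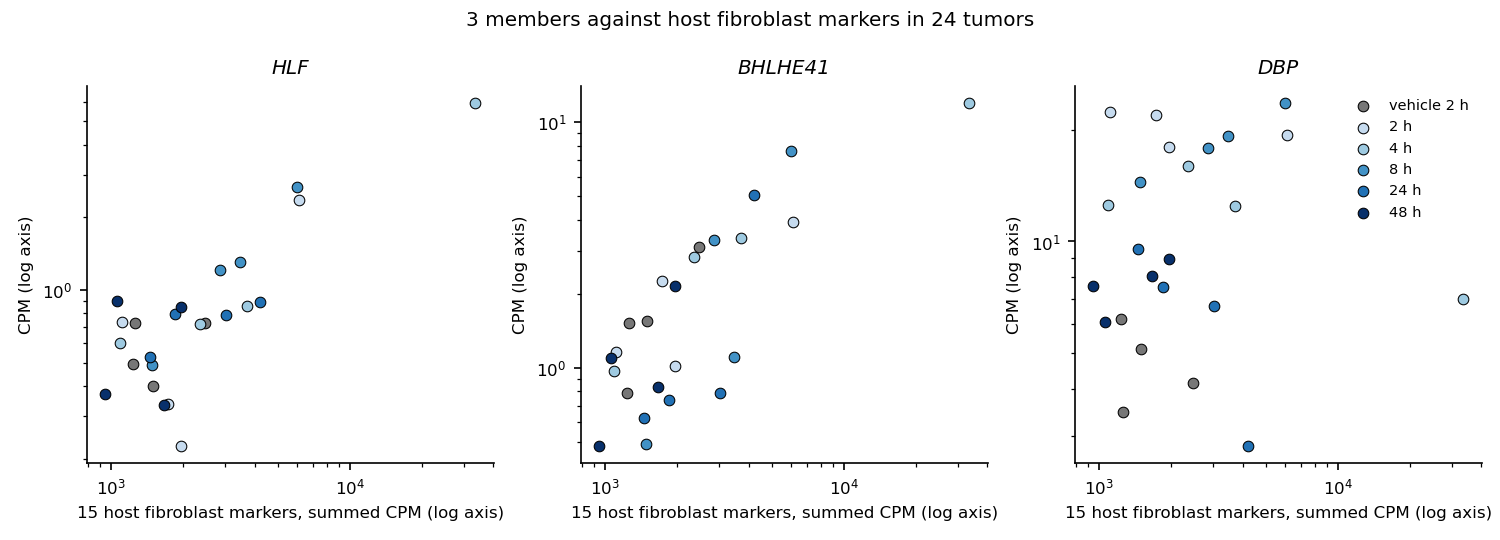
HLF, BHLHE41 and DBP against the summed level of 15 host fibroblast and pericyte markers in the 24 tumors. Both axes are CPM on a log scale, and each point is a tumor shaded by group. HLF and BHLHE41 are highest in 4 h tumor 2, at 33658 CPM of markers, where DBP is at 6.99 CPM. DBP is highest in 8 h tumor 4, at 23.6 CPM.

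CIART, the repressor also called CHRONO, was the fourth gene to rise at 2 h. It had 9.5, 9.41, 11.1 and 9.23 CPM at 2 h, against 5.81, 4.99, 5.23 and 6.86 CPM in vehicle tumors. The groups did not overlap (log2 0.78 ± 0.21, adjusted p = 0.0107, edgeR), and the call was lost on log2(TPM + 1) (0.44, adjusted p = 0.173). At 4 h it had 11.0, 5.74, 7.92 and 9.71 CPM, and the difference of 0.59 ± 0.21 missed the threshold (adjusted p = 0.0653). Without 4 h tumor 2, the lowest, it was 0.76 and called (adjusted p = 0.0182). At 8 h CIART had 6.86, 13.6, 9.96 and 14.5 CPM (0.97 ± 0.22, adjusted p = 0.000949, and 0.0897 on log2(TPM + 1)), and tumor 1 was level with the highest vehicle tumor.

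At 24 h CIART had 7.73, 8.32, 7.28 and 8.95 CPM, all above vehicle, with 0.50 ± 0.21 (adjusted p = 0.0888, edgeR). At 48 h it had 5.73, 4.36, 5.89 and 6.71 CPM, within the range around vehicle (-0.01 ± 0.22, adjusted p = 0.982). All 48 h tumors were below all 24 h and all 2 h tumors. The difference of 48 h from 2 h was -0.79 ± 0.22 (adjusted p = 0.0511).

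Between times, 1 to 3 of the 9 members were called in each comparison. At 4 h relative to 2 h, 1 rose (NR1D2) and 2 fell (NR1D1 and BHLHE40), where 6.89% of all genes rose and 9% fell. NR1D2 alone was called at 8 h relative to 4 h, where 11.6% rose and 15.5% fell. DBP and TEF were those called at 24 h relative to 8 h, and fell, where 5.3% of all genes rose and 1.58% fell. BHLHE40 was the member called at 48 h relative to 24 h, where 2.47% rose and 1.6% fell. DBP was that called at 48 h relative to 2 h, where 1.92% rose and 0.57% fell. These comparisons share tumors with those against vehicle.

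By mean CPM, DBP had its groups in the order vehicle, 24 h, 48 h, 4 h, 8 h and 2 h, and each group overlapped the next in that order. NR1D1 ran from 4 h, vehicle, 24 h, 8 h and 48 h up to 2 h, and NR1D2 from 8 h, 24 h, 2 h, 48 h and vehicle up to 4 h, again with every neighbour overlapping. TEF was lowest in vehicle, then 24 h, 48 h, 2 h and 8 h, and highest at 4 h. BHLHE40 was lowest at 4 h, then 8 h, 24 h, vehicle and 2 h, and highest at 48 h. CIART ran from 48 h, vehicle, 24 h, 4 h and 2 h up to 8 h, and its vehicle and 24 h tumors were the one pair of neighbours without overlap. The ratio of the highest to the lowest group mean was 4.32 for DBP, 2.55 for BHLHE40, 2.3 for NR1D1, 1.98 for CIART, 1.88 for TEF and 1.78 for NR1D2. Of the members not called by the F test, BHLHE41 had 4.19, HLF 3.45 and NFIL3 1.94.

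The core clock genes upstream of these outputs moved in both directions. At 2 h, 13.4% of all genes rose and 13.6% fell. Of the 9 core clock genes, 3 rose at 2 h (CRY2, PER1 and PER2) and 3 fell (BMAL2, NPAS2 and CLOCK), each 1 to 3 with 1 tumor left out. Of the rises, CRY2 was lost on log2(TPM + 1) (adjusted p = 0.0689), and PER2 on that scale (0.0845) and without a low-count filter (0.0824). PER2 was also lost on omitting vehicle tumor 1 or 2 or 2 h tumor 3 or 4 (adjusted p 0.0507 to 0.0853, edgeR). The CLOCK fall was lost on omitting vehicle tumor 1 or 2 or any of the 2 h tumors (adjusted p 0.0529 to 0.121, edgeR). The NPAS2 fall was -0.44 ± 0.15 (adjusted p = 0.034), and -0.36 and not called without both tumors rich in host markers (0.0712). It was also lost on omitting vehicle tumor 1 or 2 or 2 h tumor 1 or 4 (adjusted p 0.0577 to 0.0804, edgeR). BMAL2, a paralog of BMAL1, averaged 8.6 CPM at 2 h and 35.0 CPM in vehicle tumors (log2 -2.02 ± 0.27, adjusted p = 2.62e-05, edgeR), a call that held in every alternative. The repressor PER1 averaged 46.5 CPM at 2 h and 27.5 CPM in vehicle tumors (0.75 ± 0.22, adjusted p = 0.0153), a call that ended on omitting vehicle tumor 1, vehicle tumor 2 or 2 h tumor 4 (adjusted p 0.0589 to 0.0609). CRY1, another repressor, missed the threshold at 2 h (-0.31 ± 0.18, adjusted p = 0.216).

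At 8 h, 4 of the 9 rose (PER2, CRY2, PER1 and PER3) and 4 fell (NPAS2, BMAL2, BMAL1 and CLOCK), the same numbers with any 1 tumor left out. Of all genes, 20.6% rose and 23.7% fell at 8 h. On log2(TPM + 1) the rises of PER3 (0.20, adjusted p = 0.433) and CRY2 (0.32, adjusted p = 0.178) were not called by limma. PER2, a repressor, averaged 48.8 CPM at 8 h and 21.7 CPM in vehicle tumors (1.17 ± 0.19, adjusted p = 3.97e-05, edgeR). NPAS2, the CLOCK paralog, averaged 36.6 CPM at 8 h and 118 CPM in vehicle tumors (-1.69 ± 0.15, adjusted p = 3.53e-08). BMAL1, a target of the REV-ERB receptors, averaged 3.82 CPM at 8 h and 11.4 CPM in vehicle tumors (-1.58 ± 0.30, adjusted p = 0.000248). It had not been called at 2 h. At 4 h, 2 rose and 3 fell, where 6.74% of all genes rose and 8.39% fell. Among the 3 was BMAL1 at -1.11 ± 0.30 (adjusted p = 0.012). Its call was lost without vehicle tumor 3 (0.0599), without 4 h tumor 3 (0.0558) and in the fit to those 2 groups alone (0.0836). BMAL2 was the member of the list still lower at 24 h (-1.99 ± 0.27, adjusted p = 2.03e-05) and at 48 h (-1.41 ± 0.26, adjusted p = 0.00114). No other was called at 24 h, where 13.7% of all genes rose and 13.8% fell. CRY2 rose at 48 h, where 5.52% of all genes rose and 4.46% fell. That call was lost on log2(TPM + 1) (adjusted p = 0.386, limma), without a low-count filter (0.135, edgeR) and without some single tumors.

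Within tumors, log2 of NR1D1 over BMAL1 was 1.18 ± 0.47 in vehicle tumors, and 2.53 ± 0.58 in 2 h, 2.28 ± 0.21 in 4 h and 3.05 ± 0.81 in 8 h tumors (TPM, SD, n = 4 each). The 24 h tumors had 1.24 ± 0.52 and the 48 h tumors 1.76 ± 0.33. All 4 h and 8 h tumors, at 2.00 or more, were above all vehicle tumors, at 1.79 or less. At 2 h, 1 tumor lay inside the vehicle range.

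Genes for the turnover of clock proteins were measured too, in a list that also holds ROR receptors and TIMELESS. TIMELESS, a partner of replication forks that has also been tied to the clock, averaged 30.8 CPM at 2 h and 55.3 CPM in vehicle tumors (log2 -0.85 ± 0.24, adjusted p = 0.0134, edgeR). FBXW11, a subunit of the ubiquitin ligase that marks PER proteins, averaged 39.6 CPM at 2 h and 61.7 CPM in vehicle tumors (-0.64 ± 0.21, adjusted p = 0.0271). The TIMELESS call ended on omitting vehicle tumor 1 (adjusted p = 0.0614), and that of FBXW11 on omitting any of vehicle tumors 1 to 3 or 2 h tumors 2 to 4 (up to 0.0856). CSNK1D, a kinase of PER proteins, missed the threshold at 0.27 ± 0.12 (adjusted p = 0.0822).

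Pearson correlations of log2 CPM over the 24 tumors, which share libraries, depth and groups, describe which members varied together. The highest were 0.75 between NFIL3 and BHLHE40, 0.74 between HLF and BHLHE41, 0.74 between DBP and CIART and 0.64 between DBP and TEF. The REV-ERB receptors had -0.23. Without both tumors rich in host markers, HLF and BHLHE41 had 0.59, DBP and TEF 0.80 and the REV-ERB receptors -0.33. Among 10429 or 10430 candidate genes of at least 3 in mean log2 CPM, those most like BHLHE40 were DDIT4 (r = 0.91), SLC2A1 (0.90) and FHL2 (0.90). NR1D2 was most like TMCC3 (0.92), PKN2 (0.88) and PTBP3 (0.87), and DBP most like RAB40C (0.91), APOL2 (0.90) and IL17RE (0.89). For NR1D1 the values were lower, with USP35 (0.73), CARD19 (0.71) and UBALD1 (0.71). TEF was most like ABHD4 (0.84), PLXNB2 (0.82) and RHOU (0.81), CIART like HOTAIR (0.87), RAB40B (0.84) and COQ10A (0.84), and NFIL3 like SNHG32 (0.89), HK2 (0.87) and ZFAS1 (0.85). HLF was most like COPZ2 (0.88), SPOP (0.88) and GPC3 (0.87), and BHLHE41 like TXNL1 (0.88), COL4A1 (0.88) and ABCA1 (0.87). Over the 22 tumors without those 2, the same genes had 0.76, 0.74 and 0.76 with HLF, and 0.83, 0.82 and 0.81 with BHLHE41.

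For 4 members an exon overlaps a gene on the other strand, and whether strand was used in counting is not given, so reads there cannot be told apart. NR1D1 shares 263 exonic bases with THRA, which had 0.42 ± 0.18 at 2 h (adjusted p = 0.0822, edgeR) and rose by 0.74 ± 0.18 at 4 h (0.0057), when NR1D1 was at -0.09. DBP shares 661 bases with SPHK2, which had 0.14 ± 0.14 at 2 h (adjusted p = 0.513). BHLHE40 shares 4 bases with BHLHE40-AS1, at 0.145 to 1.03 TPM, and BHLHE41 shares 162 with SSPN, at up to 0.455 TPM. Counts per TPM, which follow the transcript length that the authors' tool assigned, varied between tumors by 17.3 times for BHLHE41, 4.56 times for HLF and 3.47 times for DBP, and by 1.34 to 2 times for the others.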

How the data were processed

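RNA of 24 tumors was sequenced after polyA selection with paired reads, per the labels' protocols. Per the submitters' processing notes, the authors used bcl2fastq 2.17, FastQC 0.12.1, Salmon 0.14.1 and GRCh38.p13, with no order given. The authors deposited Salmon's estimated counts and TPM per gene. Of values above 0, 59.6% of the estimated counts were whole to within 0.0015, and all were rounded here. Symbols were matched by gene ID for 60089 of 60230 genes. No source used here gives the use of strand in counting or how reads of mouse cells were handled.

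Rounded counts were fitted with edgeR 4.0.16 in R 4.3.3 (filterByExpr, TMM, robust quasi-likelihood) over all 24 tumors, which left 18242 genes. Alternatives used DESeq2 1.42.0, limma 3.58.1, other size factors and filters, log2 of TPM plus 1 or 0.1, host content, fewer groups, a replicate block and omission of each tumor. The omission of both tumors rich in host markers was added after seeing the data. The members and lists were chosen with earlier results of these data known. Genes outside the members are named as up to 3 of the smallest adjusted p in each direction in a list and the most expressed one not called, and by likeness as the 3 of highest correlation. Others named were chosen after their values were seen. The labels name separate animals, so p-values measure the spread between animals. The pipeline was tested on simulated data. Some results of these lists are not reported here.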

Additional observations from a re-analysis of the deposited data

Results flagged for a closer look

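Among the 54 groups of 4 tumors (9 genes in 6 groups), 5 held a tumor whose gap to its nearest neighbour was large beside the range of the group in log2 CPM. Chance flags about 1 in 20 such groups. The gap over the range was 0.859 for NR1D2 in vehicle tumor 3 (high), 0.837 for TEF and 0.857 for HLF in 4 h tumor 2 (both high), 0.897 for BHLHE41 in 24 h tumor 3 (high) and 0.844 for CIART in 2 h tumor 3 (high). The tumor high in TEF and HLF had the most fibroblast and pericyte markers, 33658 CPM, and the part of those cells was not tested.

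In 5 cases the estimates of a member against vehicle had opposite signs at successive times, and the difference between the times passed the test (edgeR, adjusted p under 0.05). Relative to 2 h, NR1D1 was lower at 4 h by -1.21 on the log2 scale, NR1D2 higher by 0.513 and BHLHE40 lower by -1.03. Relative to 4 h, NR1D2 was lower at 8 h by -0.831. Relative to 24 h, BHLHE40 was higher at 48 h by 0.819. Only for NR1D2 at 8 h over 4 h did both times also differ from vehicle. Against vehicle, NR1D1 at 4 h (-0.09, adjusted p = 0.841, edgeR), NR1D2 at 2 h (-0.07, 0.758) and BHLHE40 at 2 h (0.20, 0.557), 24 h (-0.30, 0.349) and 48 h (0.52, 0.165) were not called.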

How the results depend on the processing

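Of 399 alternative values of the 21 member calls, 324 stayed called, 75 were not called and 0 changed sign; of 608 of the 32 values not called, 555 stayed so, 13 became called and 40 changed sign. The causes were not tested. Without a low-count filter, 2 members were called at 2 h. On log2(TPM + 1) and log2(TPM + 0.1), 2 were called at 2 h, 1 at 4 h and 2 at 8 h, and 1 at 24 h over 8 h, 0 at 48 h over 24 h and 0 at 48 h over 2 h. The stricter filter called 3 at 8 h. At 48 h over vehicle, 1 was called with the host covariate and 4 in the 2 groups alone. DESeq2 called 5 at 4 h over 2 h, the host covariate 2 at 8 h over 4 h, and the 2 groups alone 1 at 24 h over 8 h and 0 at 48 h over 24 h. At 48 h over 2 h, RLE, DESeq2, limma-voom, the stricter filter, the host covariate and the 2 groups alone each called 2.

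Replicate numbers did not pair the tumors: of 60 same-numbered pairs 20 correlated over 0.1, and the mean was -0.013. With the replicate block, 0 members were called at 48 h over 24 h, and the calls of NR1D2 at 4 h and BHLHE40 at 8 h were lost.

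Signs changed as follows, against vehicle. At 2 h, without both tumors rich in host markers, HLF was -0.47 and BHLHE41 -0.25, and on TPM BHLHE40 was -0.051 with either pseudocount. BHLHE41 was -0.23 at 4 h with the host covariate and -0.064 at 8 h on log2(TPM + 0.1). At 24 h TEF was -0.050 without a filter, -0.067 and -0.085 on TPM and -0.010 with the host covariate, HLF -0.019 with the covariate, and BHLHE41 -0.44 in limma-voom, -0.028 without a filter, -0.11 on log2(TPM + 0.1) and -0.66 with the covariate. HLF was -0.018 at 48 h in limma-voom.

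With 1 tumor left out, members called ranged from 2 to 4 at 4 h, from 3 to 5 at 8 h and from 0 to 1 at 24 h. Between times the ranges were 2 to 6 at 4 h over 2 h, 1 to 2 at 8 h over 4 h, 1 to 2 at 24 h over 8 h, 0 to 1 at 48 h over 24 h and 1 to 2 at 48 h over 2 h. At 2 h NR1D2 ranged from -0.16 to 0.034, HLF from -0.46 to 0.94 and BHLHE41 from -0.25 to 0.71. NR1D1 at 4 h ranged from -0.26 to 0.040, and BHLHE41 at 8 h from -0.094 to 1.30. At 24 h TEF ranged from -0.12 to 0.12 and BHLHE41 from -1.28 to 0.50. At 48 h NR1D2 ranged from -0.16 to 0.059, HLF from -0.18 to 0.26, NFIL3 from -0.25 to 0.078 and CIART from -0.10 to 0.095.

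Over all genes, 2761 were called at 4 h and 1659 on log2(TPM + 1), 1821 at 48 h and 1039 on log2(TPM + 1), 2899 at 4 h over 2 h and 1662 with the host covariate, 1256 at 24 h over 8 h and 355 in the 2 groups alone, 742 at 48 h over 24 h with 148 in the 2 groups alone and 1935 with the host covariate, and 455 at 48 h over 2 h with 229 on log2(TPM + 0.1) and 1169 with the host covariate. Omissions of 1 tumor that moved such a count by over 1.5 times gave 963 to 1129 at 48 h, 1003 to 1792 at 4 h over 2 h, 629 to 2673 at 24 h over 8 h (2673 without 24 h tumor 1), 298 to 1362 at 48 h over 24 h and 231 to 270 at 48 h over 2 h. At 8 h over 4 h, 4948 genes were called and 3041 without 8 h tumor 3. Depth limits HLF and BHLHE41, at 4 to 62 and 7 to 125 counts per tumor.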

Other observations

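Other clock-controlled genes, a list that does not hold the 9 members, moved in both directions, and 14 of its 16 were tested. Against vehicle, 1 rose and 3 fell at 2 h, 1 rose and 3 fell at 4 h, 2 rose and 5 fell at 8 h, 1 rose and 2 fell at 24 h, and 1 rose and 1 fell at 48 h. Of all genes, 13.4% rose and 13.6% fell at 2 h, 6.74% and 8.39% at 4 h, and 20.6% and 23.7% at 8 h. These shares were 13.7% and 13.8% at 24 h, and 5.52% and 4.46% at 48 h. TSC22D3, the glucocorticoid-induced leucine zipper, rose at all 5 times, and averaged 138 CPM at 48 h against 64.9 CPM in vehicle tumors (log2 1.09 ± 0.17, adjusted p = 0.000322, edgeR). Its 2 h call, at 0.60 ± 0.17, was lost in 4 alternatives. CDKN1A, the cell cycle inhibitor p21, averaged 49.7 CPM at 2 h against 136 CPM in vehicle tumors (-1.46 ± 0.25, adjusted p = 0.000371). ALAS1, the first enzyme of heme synthesis, averaged 67.6 CPM at 2 h against 153 CPM in vehicle tumors (-1.18 ± 0.24, adjusted p = 0.00113). The calls of CDKN1A and ALAS1 at 2, 4 and 8 h held in every alternative. WEE1, a kinase that holds back mitosis, fell at 24 h (-0.66 ± 0.15) and at 48 h (-0.75 ± 0.15).

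Of 12 genes of the glucocorticoid response, 2 rose and 5 fell at 2 h, 1 rose and 2 fell at 4 h, 3 rose and 4 fell at 8 h, 1 rose and 2 fell at 24 h, and 1 rose and 0 fell at 48 h. The shares of all genes at these times are given just above. TSC22D3 and PER1 are in other lists too. FKBP5, a chaperone of the glucocorticoid receptor, averaged 55.2 CPM at 2 h against 92.0 CPM in vehicle tumors (-0.74 ± 0.19, adjusted p = 0.0068). ERRFI1, an inhibitor of EGFR, averaged 160 CPM at 2 h against 324 CPM in vehicle tumors (-1.02 ± 0.32, adjusted p = 0.0215).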
